A study of Mus musculus with 4 samples.

Results

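Activated general capillary (gCap) endothelial cells are lung capillary cells that carry transcripts of Ntrk2, Lrg1, Fxyd5 and Tubb2b, markers of an activated state that gCap cells take on after injury. They were taken here as cells with 200 to 7500 genes and at most 15% mitochondrial UMIs (unique molecular identifiers, each counted as 1 captured transcript). Each had at least 1 UMI of Cdh5, the gene of VE-cadherin, and UMIs of at least 2 of the 4 markers. None had a UMI of Ednrb (aerocytes), Gja5 (arterial cells), Slc6a2 (venous cells), Prox1 (lymphatic cells), Mki67 (dividing cells), Ptprc (leukocytes), Epcam (epithelium) or Pdgfra (fibroblasts). The rule was met by 1157 cells, of 3262 endothelial cells found by the same gate and of 30860 cells within the limits. The cells were thus selected on the measured UMIs of these 13 genes, so their levels in the chosen cells are given as a description only.

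The cells came from 2 wild-type (WT) mice and 2 Tubb3-/- mice, all of them given 0.8 U/kg bleomycin into the trachea and taken 14 days later at the study's ages of 8 to 11 weeks, so that every library is from an injured lung. Tubb3-/- mice were homozygous for a Cre gene placed at the start codon of Tubb3, which encodes class III β-tubulin, and the WT mice were their littermates. The deletion is present in every cell of the body, and each genotype rests on 2 animals. Each mouse gave a whole lung cell library, depleted of TER-119+ red cells, and a mural cell-enriched library, depleted also of CD31+, CD45+ and EpCAM+ cells and then sorted, so that endothelial cells of the latter are those that escaped CD31 depletion.

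The alveolar capillary bed holds general capillary cells, which carry the blood around the air sacs, give rise to new capillary cells after injury and regulate vessel tone, and aerocytes, which are large, thin and specialised in gas exchange. Of the 4 markers, Ntrk2 encodes TrkB, the receptor of brain-derived neurotrophic factor, and Lrg1 encodes a secreted glycoprotein that modifies TGF-β signalling in vessels. Fxyd5 encodes dysadherin, an accessory subunit of the sodium pump that weakens cell adhesion, and Tubb2b encodes a β-tubulin.

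The 4 marker genes lie on 3 chromosomes of the mouse genome (GRCm38, mm10), with gene bounds from GENCODE. Ntrk2 is at 13:58806569-59133970 on the plus strand and overlaps C630044B11Rik, Gm47423, 4930415C11Rik and Gm34245, with which it could share reads, since the use of strand in counting is not stated. Tubb2b is at 13:34126748-34130466, Lrg1 at 17:56119678-56122001 and Fxyd5 at 7:31032722-31042481, all on the minus strand, and Fxyd5 holds the microRNA gene Mir7050. The promoters of Ntrk2, Lrg1 and Fxyd5 are printed, and Tubb2b had no entry in the promoter set used. Each runs from 250 bases before to 50 bases after the start that RefSeq (GRCm38.p6) gives, 5′ to 3′ on the gene's strand. For Lrg1 and Fxyd5 this start is not the outer GENCODE bound. Capitals mark a TATAAA or GGGCGG match.
Ntrk2 (chr13:58806319-58806618, plus strand): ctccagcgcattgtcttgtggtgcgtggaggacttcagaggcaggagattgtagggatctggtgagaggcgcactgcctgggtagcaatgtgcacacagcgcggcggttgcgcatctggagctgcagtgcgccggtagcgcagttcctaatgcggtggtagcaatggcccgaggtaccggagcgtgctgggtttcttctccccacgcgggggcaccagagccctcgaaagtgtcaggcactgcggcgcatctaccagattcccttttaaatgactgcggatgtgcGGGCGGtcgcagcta
Lrg1 (chr17:56121897-56122196, minus strand): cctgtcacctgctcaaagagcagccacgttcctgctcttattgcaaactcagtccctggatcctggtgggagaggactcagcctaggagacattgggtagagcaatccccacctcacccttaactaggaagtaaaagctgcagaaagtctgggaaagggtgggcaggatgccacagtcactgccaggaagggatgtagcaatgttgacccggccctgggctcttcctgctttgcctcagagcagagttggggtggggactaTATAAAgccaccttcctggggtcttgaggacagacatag
Fxyd5 (chr7:31042282-31042581, minus strand): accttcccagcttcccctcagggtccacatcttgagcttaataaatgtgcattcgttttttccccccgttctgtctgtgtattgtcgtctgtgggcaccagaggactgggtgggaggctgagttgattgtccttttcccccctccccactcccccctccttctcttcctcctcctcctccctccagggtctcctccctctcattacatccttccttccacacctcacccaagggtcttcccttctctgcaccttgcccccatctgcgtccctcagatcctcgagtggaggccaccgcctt
Both strands were searched for the TATA box TATAAA, the GC box GGGCGG, the STAT motif TTCCNGGAA, the AP-1 motif TGANTCA and an NF-κB motif. The Lrg1 promoter held 1 TATAAA, a motif found in 13.6% of 32851 promoters of this length. The Ntrk2 promoter held 1 GGGCGG, found in 35.7% of them, and the Fxyd5 promoter held none of the 5 motifs. The STAT, AP-1 and NF-κB motifs, present in 1.15%, 7.81% and 0.411% of all promoters, were in none of the 3 windows. The GC content was 61.3% (Ntrk2), 54.7% (Lrg1) and 57.3% (Fxyd5), beside a median of 52.7% over all promoters.

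The 8 libraries held 32121 cells with 41462258 to 95036340 gene UMIs each, and the tag that names the mouse led the tag counts in 99.9% to 100% of the cells of every library. No barcode occurred in more than 1 library of a pool, and 59 occurred in both pools, which were separate droplet runs. Tubb3 was at 0.858 to 5.36 CPM (a gene's UMIs scaled to the same total in each library) in the 4 WT libraries and at 0.275 to 0.695 CPM in the 4 Tubb3-/- libraries, lower in the Tubb3-/- mice within either kind of library. Xist was at 16.1 to 21.4 CPM in all libraries of the mice numbered 1 and at 632 to 649 CPM in those numbered 2, and Ddx3y at 87.1 to 141 and 3.23 to 7.71 CPM, so that each genotype had a mouse of either kind. Intervals on shares below are exact 95% binomial intervals and cover counting error only. The p-values measure the spread between these mice, of which the fits with a replicate block leave little.

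Of the 1157 activated gCap cells, 889 were from whole lung cell libraries and 268 from mural cell-enriched ones. The whole lung cell libraries gave 120 and 114 cells (WT) and 333 and 322 cells (Tubb3-/-), and the mural cell-enriched libraries 47 and 36 (WT) and 86 and 99 (Tubb3-/-). Summed over both libraries, the cells of a mouse held 1173494 and 1376064 UMIs (WT) and 4239682 and 4101846 UMIs (Tubb3-/-), so that the WT values below are the less precise. In the whole lung cell libraries the median depth of an activated cell was 6990.5 and 8470 UMIs in WT mice and 8590 and 8725 UMIs in Tubb3-/- mice, and the median mitochondrial share was 2.86% to 3.21%.

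The cells carried the transcripts of endothelium and of general capillaries. Claudin-5 (Cldn5) was at 2094 CPM and Pecam1, the gene of CD31, at 1116 CPM on average over the 4 mice, and 1100 of the 1157 cells (95.1%) had a UMI of both. Among gCap genes, Sema3c, a semaphorin, was at 2037 CPM, Ptprb, the endothelial phosphatase VE-PTP, at 1671 CPM, Cd93 at 1252 CPM and Gpihbp1, the capillary anchor of lipoprotein lipase, at 1115 CPM. The 12 gCap genes summed to 9849 to 11747 CPM in the whole lung cell libraries and 8871 to 11833 CPM in the mural cell-enriched ones, and the arterial list to 3088 to 5153 and 6504 to 15773 CPM, so that the arterial sum exceeded the gCap sum in 3 of the 4 mural cell-enriched libraries. Cxcl12 stands in both lists. In WT replicate 2 the smooth muscle sum (225 and 3343 CPM) and the fibroblast sum (339 and 3774 CPM) were also higher in the mural cell-enriched library. The part of RNA of other cells in the arterial sums was not tested.

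Transcripts of other cell types differed between the 2 kinds of library. In the whole lung cell libraries the 14 leukocyte markers summed to 509 to 646 CPM and the 12 epithelial markers to 1056 to 1982 CPM, the latter mostly from the abundant secreted-protein genes Scgb1a1 (639 CPM on average over both kinds of library) and Sftpc (399.8 CPM). Fibroblast markers (12 genes) summed to 1370 and 339 CPM in WT and 731 and 807 CPM in Tubb3-/- mice in whole lung cell libraries. In mural cell-enriched libraries they summed to 1880 and 3774 CPM in WT and 7813 and 5055 CPM in Tubb3-/- mice, so that there the genotypes did not overlap, and in Tubb3-/- replicate 1 they exceeded the endothelial list (6176 CPM). Smooth muscle markers summed to 225 to 820 CPM in whole lung cell and 2235 to 3343 CPM in mural cell-enriched libraries. Haemoglobin and other red cell genes stood at 1820 CPM in the whole lung cell library of Tubb3-/- replicate 1 and at 21.3 to 41.3 CPM in the other 7 libraries. The 8 mesothelial markers stayed at 13.4 to 84.9 CPM in all libraries.

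Fxyd5 was the marker found in most cells. In the whole lung cell libraries, 89.3% of activated cells had a UMI of Fxyd5, 75.1% of Lrg1, 67.9% of Ntrk2 and 40.2% of Tubb2b, at pooled levels of 302, 604, 270 and 72.7 CPM. The combination seen most often was Ntrk2, Lrg1 and Fxyd5 (270 cells, 23.3%), followed by Lrg1 with Fxyd5 (228 cells, 19.7%), all 4 markers (179 cells, 15.5%) and Ntrk2 with Fxyd5 (129 cells, 11.1%). Cells just outside the rule, with 1 marker, had Fxyd5 in 53.4%, Lrg1 in 22.2%, Ntrk2 in 17.7% and Tubb2b in 6.74% of 356 whole lung cells.

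The markers differ in how well they set endothelium apart from other cells. Leukocytes (Ptprc+ cells without Cdh5), which serve as a gauge of free RNA for a gene they lack, had Ntrk2 in 1.07% and Tubb2b in 3.87% of 5117 cells at a median of 7114 UMIs, far below the 67.9% and 40.2% of activated cells at a median of 8440 UMIs. Fxyd5 was found in 85.8% and Lrg1 in 19.3% of the same leukocytes. Fxyd5, at 864 CPM in leukocytes against 302 CPM in activated cells, is therefore no marker of endothelium by itself, and 22.1% of leukocytes had at least 2 of the 4 markers, against 100% of activated cells by construction. Pdgfra+ cells without Cdh5, at a median of 17427 UMIs, had Ntrk2 in 16.6%, Tubb2b in 13.1% and at least 2 markers in 22.8% of 1621 cells. For Epcam+ cells without Cdh5 these shares were 5.94%, 5.24% and 13.3% of 286 cells, at a median of 16145 UMIs. Ntrk2 and Tubb2b in leukocytes differed little between mice, at 0.923%, 1.53%, 1.27% and 0.592% for Ntrk2 and 3.69%, 2.79%, 4.38% and 4.48% for Tubb2b in the 2 WT and then the 2 Tubb3-/- mice.

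Activated cells of Tubb3-/- mice carried more of the markers at once. In the whole lung cell libraries 36.7% and 31.6% of activated cells of WT mice had 3 or 4 markers, beside 69.1% and 56.5% of those of Tubb3-/- mice. Lrg1 was found in 68.3% and 55.3% of WT and 83.5% and 76.1% of Tubb3-/- cells, and Tubb2b in 31.7% and 41.2% against 42.9% and 40.1%. Lrg1 did not overlap between the genotypes, whereas for Tubb2b they overlapped, and so they did for Ntrk2 (67.5% and 48.2% against 75.4% and 67.4%, where WT replicate 1 lay above Tubb3-/- replicate 2). Because the rule used these genes, these shares carry no test.

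The comparison of genotypes asks whether the make-up of endothelium in the injured lung differed when Tubb3 was lost. Activated gCap cells made up 32.0% (120 of 375 cells, interval 27.3% to 37.0%) and 22.9% (114 of 498, 19.3% to 26.8%) of endothelial cells in WT mice. In Tubb3-/- mice they made up 47.1% (333 of 707, 43.4% to 50.9%) and 47.9% (322 of 672, 44.1% to 51.8%). The genotypes did not overlap, with means of 47.5% ± 0.577 (SD, n = 2) and 27.4% ± 6.44 (SD, n = 2), a ratio of 1.73. Permuting the 4 mice in an exact two-sided test gave p = 0.333, the smallest that 2 against 2 animals can give.

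The fit over all 8 endothelial classes, which shares the spread between mice among classes, gave a log2 ratio of 0.81 (SE 0.15, adjusted p = 0.000169, edgeR quasi-likelihood test with Benjamini-Hochberg adjustment). The share of gCap cells without a marker fell, from 16.0% and 15.9% in WT to 3.68% and 4.76% in Tubb3-/- mice, and that of cells with 1 marker fell by 1.01 on the log2 scale (edgeR adjusted p = 8.39e-06 and 0.000169). Dividing (Mki67+) endothelial cells rose from 0.800% and 2.61% to 7.78% and 6.99% (log2 ratio 2.00, edgeR adjusted p = 0.000169). Aerocytes (log2 ratio -0.15), arterial (-0.17), venous (-0.06) and lymphatic (-0.09) cells were not called. Shares of the same total are tied to each other, so these are not independent results. In the mural cell-enriched libraries, where CD31+ cells had been depleted, the activated share was 26.9% and 13.2% in WT and 30.3% and 35.6% in Tubb3-/- mice, again without overlap.

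**Figure D1:**
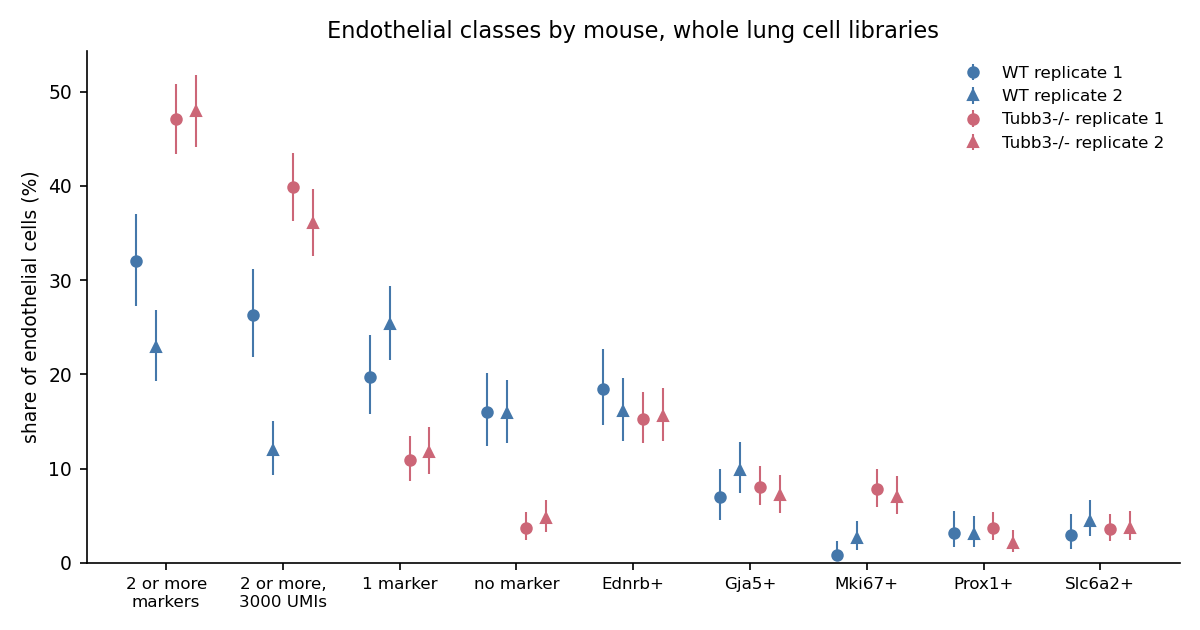
Share of endothelial cells (%, y axis) in each class, in the whole lung cell libraries of 2 WT (blue) and 2 Tubb3-/- (red) mice; bars are exact 95% binomial intervals. Cells with 2 or more markers were at 32.0% and 22.9% in WT and 47.1% and 47.9% in Tubb3-/- mice, and the order of the genotypes was the same after every cell was cut to 3000 UMIs, while the Ednrb+, Gja5+, Prox1+ and Slc6a2+ classes lay close together.

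Finding a marker in a cell takes depth, and WT endothelial cells were shallower (medians of 6126 and 7145.5 UMIs against 8875 and 8939 UMIs). Each cell was thinned at random to 3000 UMIs and the rule applied again, which left out 44 and 40 endothelial cells in WT and 46 and 34 in Tubb3-/- mice. Cells that had lost their UMIs of an excluding gene also entered, so these are not the same cells. Endothelial totals went from 375 and 498 to 361 and 519 cells in WT and from 707 and 672 to 745 and 723 in Tubb3-/- mice. The activated share was then 38.0% ± 2.66 in Tubb3-/- and 19.1% ± 10.2 in WT mice (SD, n = 2 each). The genotypes still did not overlap, and the log2 ratio was 1.01 (edgeR adjusted p = 0.0161). At this depth the share of cells with 1 marker was no longer called (log2 ratio -0.06, edgeR adjusted p = 0.855). The call rested on both Tubb3-/- animals: without Tubb3-/- replicate 1 the log2 ratio was 0.81 (edgeR adjusted p = 0.164) and without replicate 2 it was 0.79 (edgeR adjusted p = 0.174), the lone animal being taken to vary like the others.

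The markers were higher in other endothelial cells of Tubb3-/- mice too. Aerocytes (Ednrb+), which the rule left out, had 2 or more markers in 31.9% and 25% of WT cells, beside 70.4% and 69.5% of Tubb3-/- cells. The means were 28.4% ± 4.87 and 69.9% ± 0.599 (SD, n = 2 each), a difference of 41.5 percentage points (exact permutation p = 0.333, the smallest possible). At 3000 UMIs per cell the aerocyte shares were 17.5% and 2.82% in WT and 31.9% and 28.2% in Tubb3-/- mice, and still did not overlap.

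Arterial (Gja5+) cells followed the same order, at 57.7% and 46.9% in WT and 86.0% and 83.3% in Tubb3-/- mice, and at 31.2% and 24.2% against 54.8% and 46.9% when thinned (exact permutation p = 0.333 for each). Venous (Slc6a2+) cells overlapped, at 90.9% of 11 and 59.1% of 22 cells in WT and 88% and 84% of 25 cells each in Tubb3-/- mice, but not when thinned (44.4% and 25% against 60.6% and 51.6%). Lymphatic (Prox1+) cells overlapped as well, at 50% and 53.3% against 69.2% and 50%, and when thinned their mean was lower in Tubb3-/- mice (22.6% against 37.5%). Dividing cells were at 33.3% and 23.1% in WT, where there were 3 and 13 of them, and at 78.2% and 74.5% in Tubb3-/- mice. When thinned they overlapped, at 100% of 1 and 25% of 8 cells in WT and 36.1% and 35.9% in Tubb3-/- mice. The higher share in Tubb3-/- mice was thus measured in aerocytes and arterial cells as well as in gCap cells, and whether its size differed between classes was not tested.

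**Figure D2:**
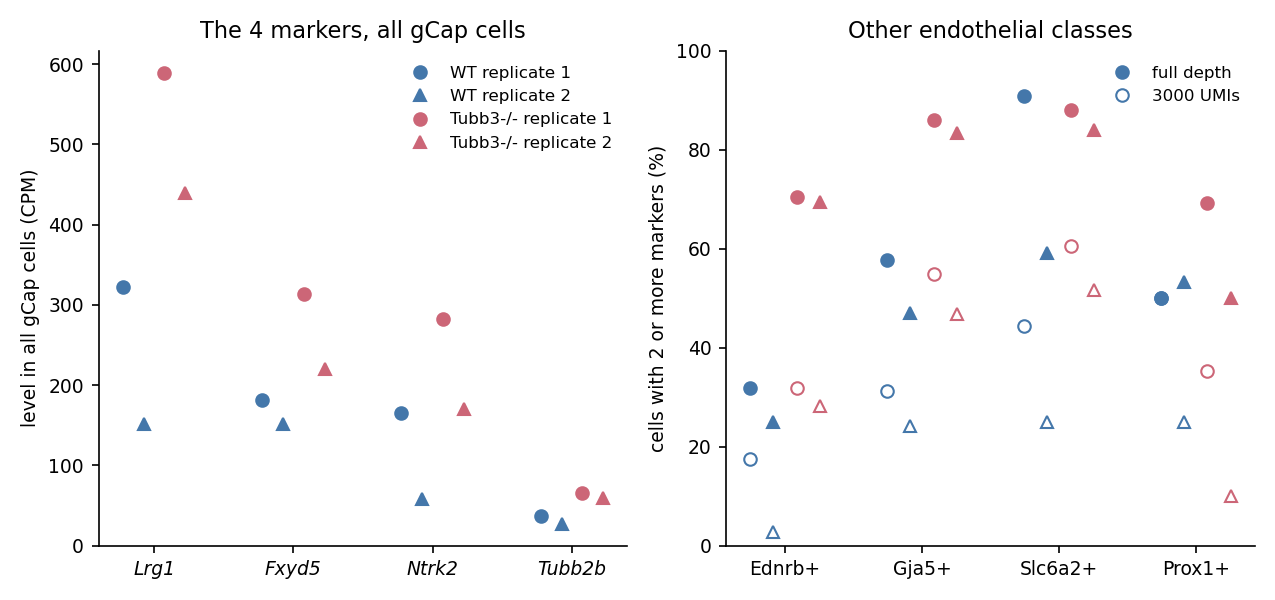
Left, level of each marker (CPM, y axis) in the UMIs of all gCap cells of a mouse. Right, share of cells with 2 or more markers (%, y axis) in 4 other endothelial classes of the whole lung cell libraries, at full depth (filled) and at 3000 UMIs per cell (open). Both Tubb3-/- mice (red) lie above both WT mice (blue) for Lrg1, Fxyd5, Ntrk2 and Tubb2b on the left and for Ednrb+ and Gja5+ cells on the right.

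Taken over all gCap cells, whatever their marker number, the 4 markers were at a higher level in either Tubb3-/- mouse than in either WT mouse, and none passed the test. Tubb2b was at 37.2 and 27.4 CPM in WT and 65.1 and 59.2 CPM in Tubb3-/- mice (log2 fold change 0.97, SE 0.17). Lrg1 was at 323 and 151 CPM against 589 and 439 CPM (1.12, SE 0.34), and Fxyd5 at 182 and 151 CPM against 314 and 221 CPM (0.69, SE 0.19). Ntrk2 was at 165 and 58.7 CPM in WT and 282 and 171 CPM in Tubb3-/- mice (1.04, SE 0.45), so that WT replicate 1 all but reached Tubb3-/- replicate 2. Adjusted p-values were 0.209 (Tubb2b), 0.349 (Lrg1), 0.319 (Fxyd5) and 0.464 (Ntrk2) (edgeR quasi-likelihood, Benjamini-Hochberg).

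In this fit over all gCap cells 1 of 12602 genes was called (0.00794%). It was Ager, a gene of type I alveolar epithelium, at 99.9 and 106 CPM in WT and 11.8 and 15.8 CPM in Tubb3-/- mice. The epithelial markers of these cells move with genotype, and their part in other differences was not tested.

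What activated cells share beyond the 4 markers was described within each mouse against gCap cells of the same gate that had none of them (369 cells). Of 4362 genes with at least 50 CPM in either state, 512 (11.7%) were higher and 545 (12.5%) lower in activated cells, by at least 1.5-fold on average over the mice and with the same sign in all 4 of them. The states differ in depth, with a median of 3722 to 4668 UMIs in 0-marker cells of the whole lung cell libraries, and in purity. Only 250 of the 369 0-marker cells (67.8%) had UMIs of both Pecam1 and Cldn5, and the smooth muscle markers summed to 509 to 7038 CPM in them against 225 to 820 CPM in activated cells (whole lung cell libraries). Each ratio is therefore given also for cells with a UMI of both Pecam1 and Cldn5, a limit added after these values were seen. Under that limit 237 of 4169 genes (5.68%) were higher and 285 (6.84%) lower by the same measure, and 98 and 59 of these were among the 512 and 545 genes.

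The gene with the highest ratio was an adhesion molecule. Selp, the gene of P-selectin, which catches rolling leukocytes, was at 101 and 38.5 CPM in activated cells of WT mice and 66.5 and 43.2 CPM in those of Tubb3-/- mice. In 0-marker cells it was at 0 in both WT mice and at 5.74 and 2.26 CPM in Tubb3-/- mice. The mean log2 ratio was 4.77, on the scale of log2(CPM + 1), and 2.75 in cells with Pecam1 and Cldn5. In the gate as a whole every mouse had more Selp in activated cells, and the states did not overlap. Among cells with Pecam1 and Cldn5, Selp did not meet the conditions of level and sign set for the ranking given below.

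Lama1, which encodes the laminin α1 chain of basement membrane, was at 124 and 66.1 CPM in activated cells of WT and 197 and 163 CPM in those of Tubb3-/- mice, beside 16.0 to 24.9 CPM in 0-marker cells (log2 ratio 2.60, 1.66 with Pecam1 and Cldn5). Ankrd37, a target of hypoxia-inducible factor whose gene overlaps Ufsp2 and Lrp2bp, was at 86.9, 36.3, 186 and 72.7 CPM beside 9.04 to 34.4 CPM (2.26, and 1.92). Tmem252, a membrane protein, was the most abundant of the 4, at 846 to 1551 CPM beside 206 to 319 CPM (2.12, and 1.21). In each of the 4 mice these 3 genes were higher in activated cells, and cells with 1 marker lay between, at means of 62.5 CPM for Lama1, 31.0 CPM for Ankrd37 and 548 CPM for Tmem252.

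The other 11 of the 15 genes with the highest ratios were Grrp1, Gja4 (connexin 37), Pim3, Ackr3 (a scavenging receptor of Cxcl12), Emp1, Marcksl1, Emcn (endomucin), Cd34, Plac8, Tiam1 and Ly6c1, with log2 ratios of 1.64 to 2.11. Gja4 also stands in the arterial list. Among cells with Pecam1 and Cldn5, of the genes with at least 50 CPM in either state and the same sign in 4 of 4 mice, the highest ratios were those of Ankrd37, Krcc1 (1.82), Plac8 (1.67), Lama1, Slc24a3 (1.58), Amd1 (1.56), Il1r1, the receptor of interleukin-1, Marcksl1 (1.47), Pim3 (1.43) and March3 (1.41). Ankrd37, Plac8, Lama1, Marcksl1, Pim3, Tmem252 and Grrp1 were thus among the 15 highest in both descriptions. Krcc1 owes its place to Tubb3-/- replicate 1, whose 0-marker cells had no UMI of it.

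The 15 genes with the lowest ratios included mesothelial genes, and all 15 ratios shrank in cells with Pecam1 and Cldn5. Msln, the gene of mesothelin, was at 5.11 to 8.72 CPM in activated cells of the 4 mice and at 180, 492, 212 and 61.1 CPM in 0-marker cells, a log2 ratio of -4.66 that became -2.02 under the limit. Gpm6a, also a mesothelial gene, went from -5.48 to -0.44, and Sox6, a transcription factor, from -4.27 to -0.33. The 15 genes with the lowest ratios (Grip1, Gpm6a, Il18r1, Tmem108, Upk3b, Sfrp2, Wdr17, Plce1, Msln, Gpc3, Adamtsl1, Sox6, Efemp1, C3 and C4b) had log2 ratios of -6.34 to -4.19.

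Some genes of signalling were lower in activated cells also among cells with both endothelial genes. Smad6, an inhibitor of BMP signalling, was at 240, 363, 190 and 280.1 CPM in activated cells beside 632, 756, 659 and 621 CPM in 0-marker cells (WT and then Tubb3-/- mice, log2 ratio -1.34). Sntb1, a syntrophin, was at 105, 187, 54.4 and 77.1 CPM beside 345, 411, 154 and 217 CPM (-1.45). Gnao1, a G protein subunit, was at 34.3 to 37.9 CPM beside 62.1 to 125 CPM (-1.33). All 3 genes were lower in activated cells of every mouse, the states overlapped across mice for Sntb1, and the mean of cells with 1 marker again lay between.

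**Figure D3:**
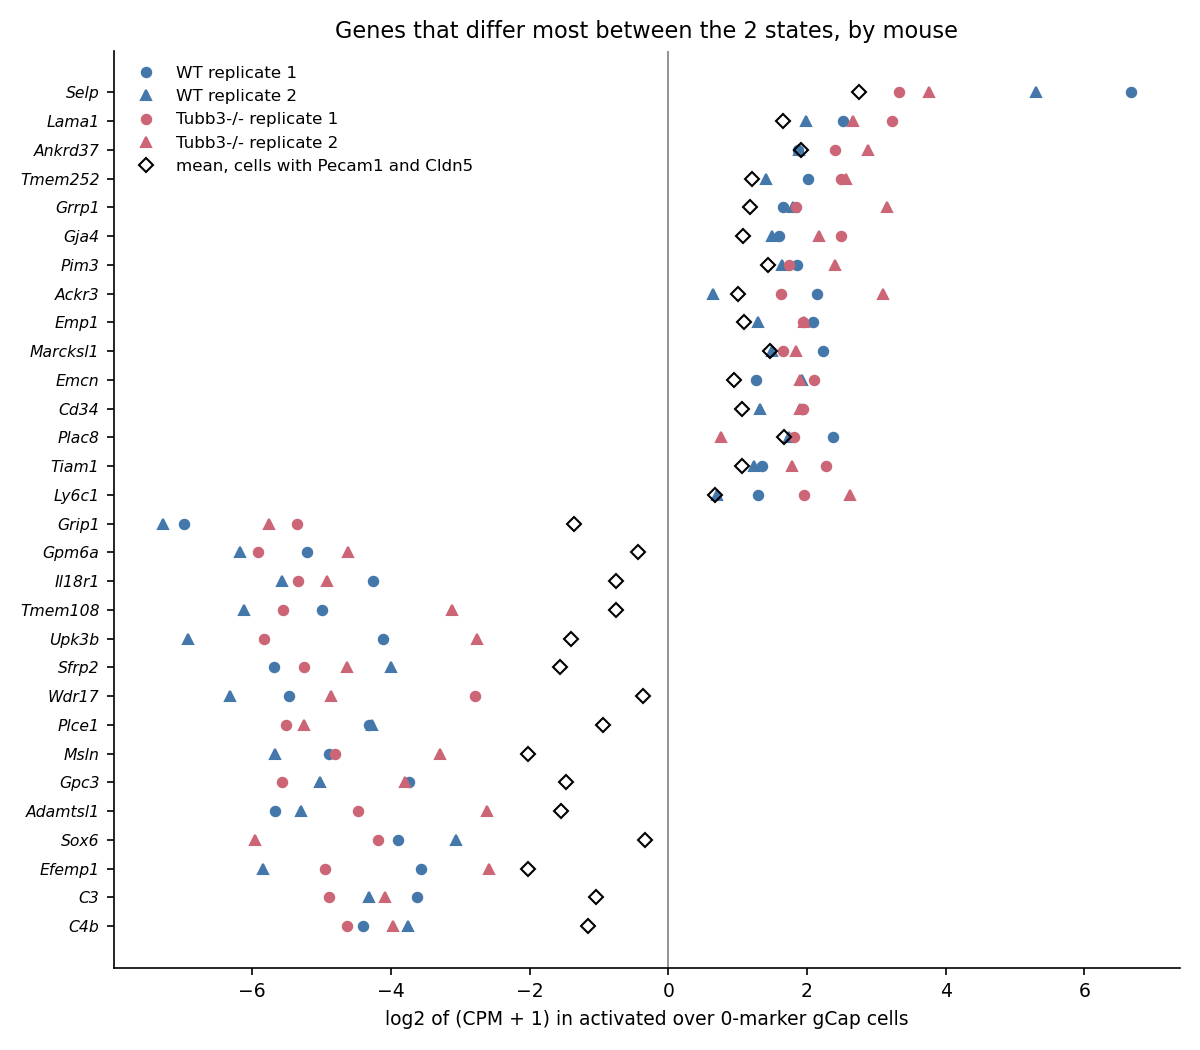
Ratio of activated to 0-marker gCap cells (log2 of CPM + 1, x axis) for the 15 genes with the highest and the 15 with the lowest mean ratio, 1 point per mouse; diamonds are the mean over mice among cells with Pecam1 and Cldn5. The lower 15 genes lie between -7.29 and -2.59 in single mice but between -2.03 and -0.33 as diamonds, while the upper 15 keep diamonds of 0.68 to 2.75. The lower 15 entered by their level in 0-marker cells, which largely fixed their direction.

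Among lists with at least 5 genes described, antigen presentation by MHC class II and leukocyte adhesion had the largest shares of members higher in activated cells. Of the MHC class II list, all 5 genes with enough counts were higher in 4 of 4 mice (median log2 ratio 1.24, beside 0.08 over all genes described). Cd74, the invariant chain, was at 583, 432, 678 and 1141 CPM in activated cells beside a mean of 317 CPM in 0-marker cells. H2-Eb1, a class II β chain, was at 177, 196, 215 and 311 CPM beside a mean of 98.9 CPM. Over all genes described 11.7% were higher and 12.5% lower. Among cells with Pecam1 and Cldn5 the median of the list was 0.75, and 1 of 5 genes still met both conditions, beside 5.68% higher over all genes. The leukocyte markers summed to 509 to 646 CPM in activated and 693 to 1045 CPM in 0-marker cells of the whole lung cell libraries. The part of leukocyte RNA in the class II values was not tested.

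Of the leukocyte adhesion list 7 of 8 genes were higher, beside 11.7% over all genes (median 1.32, and 0.58 with Pecam1 and Cldn5). Cd34, a sialomucin ligand of selectins, was at 360.1 CPM on average beside 103 CPM, Podxl, podocalyxin, at 628 beside 233 CPM, and Jam2 at 168 beside 64.2 CPM. Sele, E-selectin, had no UMI in 0-marker cells of any mouse and was at 21.3, 5.09, 29.7 and 4.14 CPM in activated cells. Vcam1 did not differ in this way, at 36.9 beside 38.1 CPM.

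Capillary lipid genes and MHC class I genes were higher too, in 4 of 5 and 8 of 11 genes, with medians of 1.23 and 0.78 that became 0.40 and 0.09 under the limit. Cd36, the fatty acid transporter, was at 2130.04 CPM beside 983 CPM on average, and H2-K1, a class I heavy chain, at 1501 beside 895 CPM. Of 22 interferon response genes 6 were higher, among them Ifitm3 and Bst2, and 1 lower, Cxcl10 (median 0.46, and -0.16 under the limit). The shares over all genes described were 11.7% higher and 12.5% lower.

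Vessel growth genes were higher in the gate as a whole but not among cells with both endothelial genes. Of the angiogenesis list 13 of 22 genes were higher and none lower (median 0.78), beside 11.7% higher and 12.5% lower over all genes. With Pecam1 and Cldn5 the median was 0.03. Aplnr, the apelin receptor, had log2 ratios of 1.46 and 0.50 in the 2 descriptions, Sox17 1.30 and 0.42, and Col4a1, a basement membrane collagen, 0.97 and 0.67. The gCap list behaved alike (9 of 12 higher, medians 0.97 and 0.08), and so did the 9 endothelial genes (6 higher, medians 0.89 and -0.00).

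Glycolysis and hypoxia genes showed the opposite order, with 3 of 14 genes higher in the gate as a whole (median 0.21) and 6 of 13 among cells with Pecam1 and Cldn5 (median 0.60). Over all genes 11.7% and 5.68% were higher in these 2 descriptions. Bnip3, a hypoxia target of mitophagy, had ratios of 1.40 and 2.24, Ndrg1 0.84 and 0.84, and the glycolytic enzymes Tpi1 and Eno1 had -0.18 and 0.75, and 0.41 and 0.88. For immediate early genes the medians were 0.07 and 0.43, and Ier3 was the member with the highest ratio (1.47, and 0.89). Of the tubulin list Tubb2a was at 282 CPM beside 122 CPM and Tubb5 at 356 beside 195 CPM, while Tubb3 had 0.852 and 0 CPM in activated cells of WT and 0.472 and 0 CPM in those of Tubb3-/- mice, so that the deleted gene was near 0 in these cells in both genotypes.

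Matrix genes were mostly lower. Of 28 matrix and mesenchymal genes 2 were higher, both chains of basement membrane collagen IV, and 16 lower (median -1.03, and -0.30 with Pecam1 and Cldn5). For this list and those that follow, the shares over all genes described were 11.7% higher and 12.5% lower. All 10 smooth muscle genes were lower (median -2.97), and so were 2 of the 6 described among cells with Pecam1 and Cldn5 (median -0.73). A gene could enter the description by its level in 0-marker cells alone, which favours a lower value in activated cells. How many of the 10 smooth muscle genes entered in this way was not examined, so their shared direction is a description only. The 6 mesothelial genes described were lower too (median -4.26). They entered the description by their level in 0-marker cells, which largely fixed their direction. Under the limit no mesothelial gene reached the level needed to be described. Of 24 TGF-β and BMP genes 2 were higher and 8 lower (median -0.08, and -0.07). The BMP receptor Acvrl1 was at 691 CPM beside 385 CPM, and Tgfb2, a ligand, at 16.3 beside 140 CPM. Of the neurotrophin genes other than Ntrk2, Bdnf, the ligand of TrkB, was at 0 to 8.05 CPM in activated cells, beside 22.9 to 57.4 CPM in 0-marker cells (log2 ratio -3.66, and -0.90 with Pecam1 and Cldn5).

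**Figure D4:**
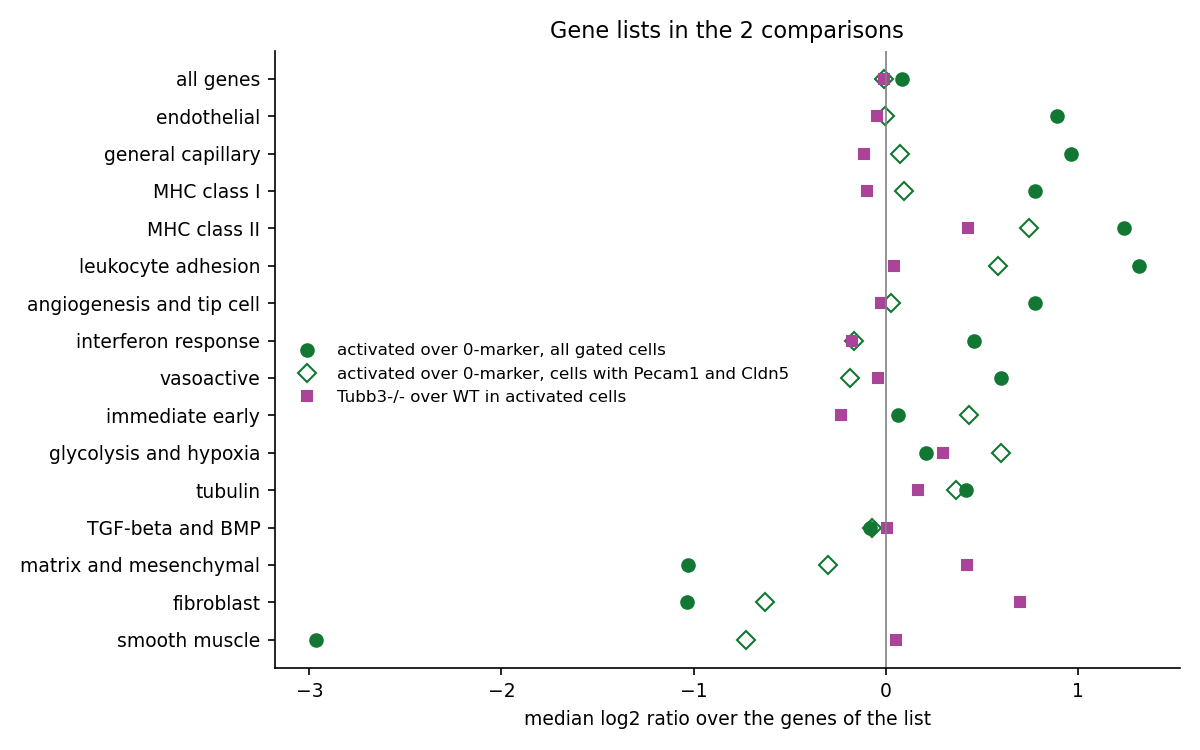
Median log2 ratio (x axis) over the genes of each list: activated over 0-marker gCap cells in the whole gate (filled circles) and among cells with Pecam1 and Cldn5 (open diamonds), and Tubb3-/- over WT mice within activated cells (squares). MHC class II and leukocyte adhesion lie at 1.24 and 1.32 by state, endothelial genes fall from 0.89 to -0.00 under the limit, and by genotype the fibroblast list (0.70) lies highest of those drawn, followed by the MHC class II and matrix lists (0.43 each).

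Whether activated cells themselves differed between genotypes was tested on their UMIs summed per mouse. No gene of 11120 passed (0.0%) (edgeR quasi-likelihood, Benjamini-Hochberg), where the smallest adjusted p was 0.134. At an unadjusted p under 0.05, 375 genes were higher (3.37%) and 473 lower (4.25%) in Tubb3-/- mice, and DESeq2 called 8, among them Nupr1 (higher) and Irf1, Icam1, Cyp4b1, Sntb1, Apoe and 9530026P05Rik (lower). The count called by edgeR was 21 without WT replicate 1, 1 without WT replicate 2 and 7 without Tubb3-/- replicate 2. With the replicate number, which also splits the mice by Xist and Ddx3y, as a block in the edgeR fit, 244 genes were called (126 higher and 118 lower). In 2065 genes (18.6%) the lower Tubb3-/- mouse exceeded the higher WT mouse, and in 2089 (18.8%) the reverse held. In simulated sums of this size and depth (10931 genes) the test recovered 36 of 50 genes (72%) given a log2 change of 1. It recovered all of those given 2 or 3. In the measured sums, however, larger changes than 1 went uncalled, such as 1.74 for Lama2 and -1.27 for Slit3 (edgeR adjusted p = 0.134 each). Changes above 1 as well as below it could thus pass unseen here. The genes named next were those with the smallest unadjusted p in each direction. None was called without the block. With it edgeR called each of them in the same direction, but the genes had been chosen by p in these same sums. The block also leaves little spread between these mice to measure. The smallest adjusted p-values of edgeR's block fit were those of Hbb-bs (3.84e-32), Fabp4 (6.07e-31) and Ifi27l2a (1.5e-25), each set largely by 1 mouse.

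Irf1 and Icam1 had the smallest p among the lower genes. Irf1, a transcription factor of the interferon response (11:53770014-53778374, overlapped by Gm17334), was at 559 and 536 CPM in WT and 253 and 301 CPM in Tubb3-/- mice. The log2 fold change was -0.98 (SE 0.13, edgeR adjusted p = 0.134), and DESeq2 called it (-0.99, adjusted p = 5.53e-05). Icam1, the intercellular adhesion molecule to which leukocyte integrins bind (9:21015985-21028817, overlapped by Gm47079), was at 441 and 398 CPM against 234 and 203 CPM (-0.94, SE 0.14, edgeR adjusted p = 0.134, DESeq2 adjusted p = 0.000263). Neither gene overlapped between the genotypes.

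Hbegf, a ligand of the EGF receptor, was at 94.8 and 81.2 CPM in WT and 43.1 and 34.9 CPM in Tubb3-/- mice (log2 fold change -1.17). Slit3, a guidance ligand of Robo receptors, was at 93.1 and 68.8 CPM against 34.5 and 32.5 CPM (-1.27). Ripk1, a kinase of cell death and inflammatory signalling, was at 154 and 143 CPM against 86.7 and 90.4 CPM (-0.75). Cyp4b1, a monooxygenase, was at 209 and 354 CPM against 115 and 126 CPM (-1.23), and the 2 WT mice differed more from each other than the 2 Tubb3-/- mice did. Ints6 (-0.72), Dennd4a (-0.81) and Neurl3, at 102 and 90.6 against 41.2 and 54.6 CPM, were lower as well. The 9 genes given here stayed lower in Tubb3-/- mice under every alternative that gave a value.

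The 10 genes higher in Tubb3-/- mice held several of the extracellular matrix. Sparc, a matricellular glycoprotein, was at 1610.5 and 1289.95 CPM in WT and 2216 and 2116 CPM in Tubb3-/- mice (log2 fold change 0.58). Nupr1, a stress-induced chromatin protein, was at 60.6 and 70.3 CPM against 146 and 126 CPM (1.05), and Zfp521, a zinc finger protein, at 62.3 and 50.004 CPM against 93.8 and 100.0 CPM (0.79). Lama2, the laminin α2 chain, was at 9.39 and 9.42 CPM against 29.0 and 33.9 CPM (1.74), Igfbp6 at 17.1 and 15.9 against 44.8 and 41.1 CPM (1.38), and Cdh11, a mesenchymal cadherin, at 12.0 and 13.8 against 32.1 and 33.4 CPM (1.34).

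Magi2 (1.34), the long noncoding RNA gene Morrbid (0.90), Gpx3 (0.79) and Ccn2 (0.75), the gene of connective tissue growth factor, completed the 10 higher genes. For Nupr1, Lama2, Igfbp6, Cdh11, Magi2, Gpx3 and Ccn2 the difference was negative under at least 1 alternative, such as 3000 UMIs per cell or the removal of cells with Pdgfrb, Col1a1 or Col1a2. Sparc, Zfp521 and Morrbid kept their sign. In the mural cell-enriched libraries the fibroblast markers of activated cells were higher in both Tubb3-/- mice, as given above, and their part in these differences was not tested.

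**Figure D5:**
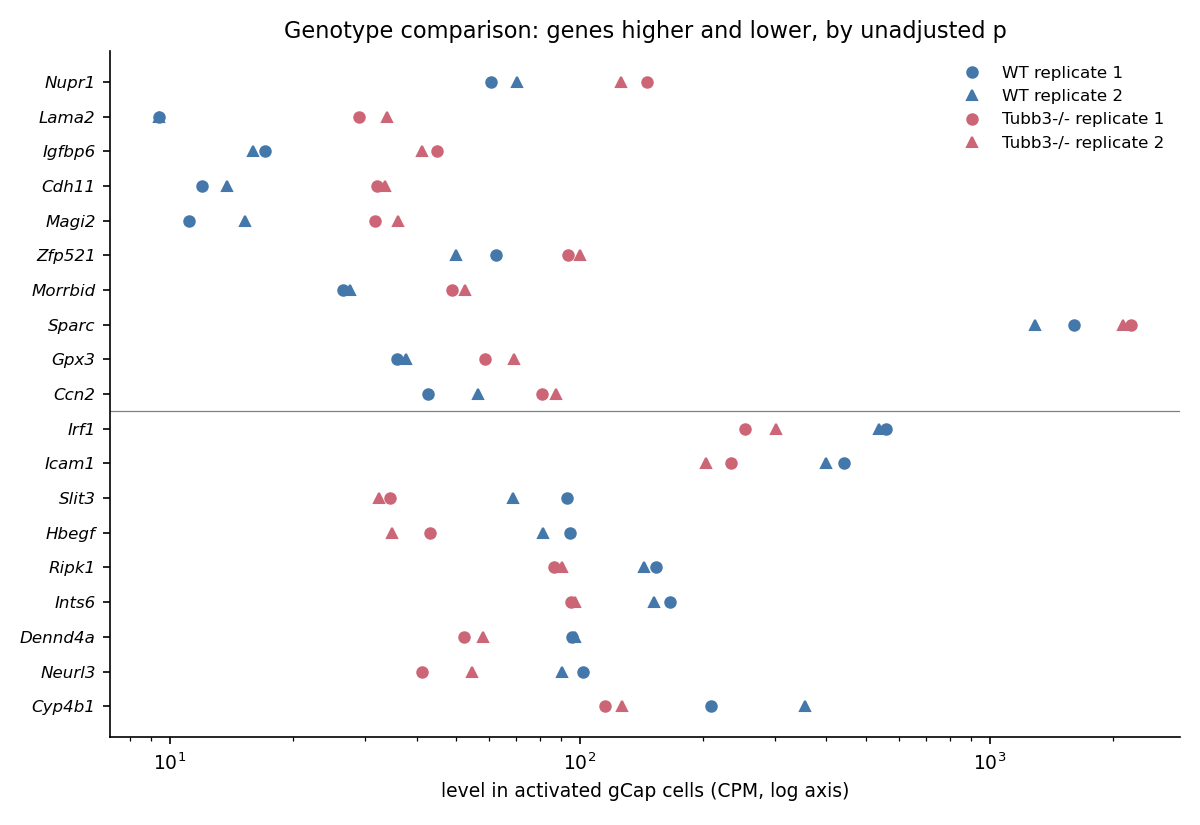
Level in activated gCap cells (CPM, log axis) of 10 genes higher and 9 lower in Tubb3-/- mice, chosen by their unadjusted p, 1 point per mouse. Blue (WT) and red (Tubb3-/-) points do not overlap for any of the 19 genes, which the choice of genes fixed; Irf1 lies at 559 and 536 CPM in WT and 253 and 301 CPM in Tubb3-/- mice.

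By list, the matrix genes were the group with the most members at an unadjusted p under 0.05. Of 33 matrix and mesenchymal genes tested 14 were higher at that level and 1 lower (median log2 fold change 0.43, beside -0.01 over all genes, of which 3.37% were higher). Of these, Col4a1 was at 1545 and 1058 CPM in WT and 1842 and 1685 CPM in Tubb3-/- mice (0.44), Col1a1 at 286 and 163 against 419 and 312 CPM (0.71), Bgn, biglycan, at 190.4 and 158 against 239.6 and 231 CPM (0.44), and the crosslinking enzyme Loxl2 at 10.2 and 6.52 against 17.2 and 21.4 CPM (1.22). Of 11 fibroblast markers 6 were higher (median 0.70), among them Dcn, decorin, at 73.4 and 136 against 183 and 298 CPM (1.19). At 3000 UMIs per cell Dcn was called in the opposite direction (-1.78, edgeR adjusted p = 0.00669), and Gsn, Serpinf1, Clec3b and Mgp were called lower there too, genes named after their values were seen. With the block, which leaves little spread between mice to measure, Dcn (1.21) and Col1a1 (0.74) were called higher. None of the genes of these lists was called without the block at full depth (smallest adjusted p by edgeR's test 0.377 in the matrix list, for Sparc, and 0.438 in the fibroblast list, for Dcn), and Col1a1, Col1a2, Col3a1, Fn1 and Postn stand in both lists.

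Immediate early genes leaned the other way, with 7 of 19 lower at an unadjusted p under 0.05 and none higher (median -0.23). Over all genes 4.25% were lower and 3.37% higher at that level. Egr1 was at 991 and 1136 CPM in WT and 754 and 775 CPM in Tubb3-/- mice (-0.48), and Nr4a1 at 173 and 150.01 against 97.7 and 128 CPM (-0.52). Of 34 interferon genes 5 were lower at that level (median -0.17), among them Irf1, Isg15 (142 and 143 against 82.4 and 116 CPM, -0.52) and Ifi27l2a. Ifi27l2a was set by WT replicate 2 (76.9 and 585 against 39.0 and 54.6 CPM), and so was Fabp4, a fatty acid binding protein, at 167 and 739.9 against 61.5 and 15.6 CPM. With WT replicate 2 as the only WT mouse, the fat cell genes Car3, Cfd and Adipoq had log2 fold changes of -11.5, -11.6 and -8.45. The part of fat cell RNA of that mouse in the Fabp4 values was not tested.

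Glycolysis and hypoxia genes had 4 of 19 members higher at an unadjusted p under 0.05 and none lower (median 0.30), beside 3.37% higher and 4.25% lower over all genes. Ndrg1 was at 111 and 108 against 174 and 140.4 CPM (0.52) and Gapdh at 229.7 and 246 against 347 and 277 CPM (0.39). Of 7 MHC class II genes 2 were higher (median 0.43), and Tubb3-/- replicate 2 held the highest value of Cd74 (1125 CPM) and of H2-Eb1 (307 CPM). Genes of the general capillary (median -0.11), endothelial (-0.04), angiogenesis (-0.02), TGF-β and BMP (0.01) and MHC class I (-0.10) lists lay near the median of all genes. Edn1, endothelin 1, was at 238 and 157 CPM in WT and 409 and 246 CPM in Tubb3-/- mice (0.74).

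In gCap cells without a marker the same comparison called 52 of 7093 genes (0.733%), 44 of them higher and 8 lower in Tubb3-/- mice, by edgeR's quasi-likelihood test. Gpx3, an extracellular glutathione peroxidase, was at 77.7 and 85.3 CPM in WT and 349 and 355 CPM in Tubb3-/- mice (log2 fold change 2.10), and Postn, periostin, at 75.4 and 56.1 against 318 and 580.5 CPM (2.80). With the limit to cells with Pecam1 and Cldn5, 1 gene was called, and without cells that had a UMI of Pdgfrb, Col1a1 or Col1a2, edgeR called none (0 of 2114 genes, 116 at an unadjusted p under 0.05). The count was 162 without WT replicate 2, 582 without Tubb3-/- replicate 1 and 315 without Tubb3-/- replicate 2. In these cells smooth muscle markers summed to 509 and 1255 CPM in WT and 6518 and 7038 CPM in Tubb3-/- mice (whole lung cell libraries), and their part in the calls was not tested.

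Whether the change with genotype differed between activated and 0-marker cells was tested as an interaction, with the mouse as a block. It was called in 13 of 10152 genes (0.128%, edgeR quasi-likelihood test). The count was 33 without WT replicate 1, 4 without WT replicate 2, 256 without Tubb3-/- replicate 1 and 123 without Tubb3-/- replicate 2. The 13 were 4 haemoglobin genes, Ifi27l2a, Slit3, Ces1d, Lmcd1, Tnc, Lama4, Igkc, Adamts4 and Igfbp6. Slit3, lower in activated cells of Tubb3-/- mice as given above, was at 122 and 116 CPM in 0-marker cells of WT and 238 and 469 CPM in those of Tubb3-/- mice. The change in Slit3 thus ran in opposite directions in the 2 kinds of cell. Neither change was called on its own (edgeR adjusted p = 0.134 in activated and 0.058 in 0-marker cells). Lama4, a laminin chain of vessel walls, was at 30.2 and 19.8 against 14.97 and 24.7 CPM in activated cells. In 0-marker cells it was at 47.6 and 47.4 against 160 and 221 CPM. The 0-marker cells of Tubb3-/- mice numbered only 52 and 58. Their smooth muscle markers were higher than in WT mice, as given above, and the part of such RNA in these values was not tested.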

How the data were processed

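Single cells of 2 WT and 2 Tubb3-/- mice were tagged by CellPlex, run in 2 pools (whole lung cells and mural cell-enriched cells) and counted by the authors with Cell Ranger 7.1.0 against mm10. The deposited matrices hold raw UMI counts per gene and cell, with no normalization. The labels name the groups, and each matrix was tied to its mouse by its leading tag.

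Cells with 200 to 7500 genes and at most 15% mitochondrial UMIs were kept. UMIs of chosen cells were summed per mouse over both libraries and passed to edgeR 4.0.16 (R 4.3.3), with its default low-count filter filterByExpr, TMM factors, the quasi-likelihood test and a Benjamini-Hochberg threshold of 0.05. Levels in genotype comparisons are CPM on TMM library sizes, and levels set between cell states are CPM on plain totals, with ratios on log2(CPM + 1). Shares were tested by an exact two-sided permutation over mice and by edgeR on the cells of 8 endothelial classes. The interaction had the mouse as a term. The test was checked on simulated counts, where it made 15 false calls among unchanged genes. DESeq2 1.42.0, RLE size factors, no low-count filter, thinning to 3000 UMIs (after which the whole rule was applied again), other marker and mitochondrial limits, leaving out each mouse and whole lung cell libraries alone were alternatives.

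Doublets were kept. Scrublet's automatic threshold marked 2 of 14160 whole lung cells (0.0141%), which is too few to count as working, and 644 of 16700 mural-pool cells (3.86%), so leaving out the 5% with the highest scores was added.

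Named genes were the 10 with the smallest unadjusted p in each direction by genotype (at least 20 CPM, groups not overlapping, since none was called), the 15 highest and 15 lowest ratios by state (at least 50 CPM in either state, same direction in 4 of 4 mice), the called genes of the interaction, and members of the gene lists with the highest levels or as an account of a list needed them. Genes of the limit to Pecam1 and Cldn5, the fit over all gCap cells and its markers were chosen after values were seen. The members and the gene lists were chosen with earlier results of these data known.

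Same-numbered mice of the 2 genotypes are separate animals, and their deviations from the group means correlated at 0.131 over 11125 genes. Mx1, Mx2 and Cxcl11 were not analysed here, and 2 genes that the rule or a list would name are not reported here.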

Additional observations from a re-analysis of the deposited data

Results flagged for a closer look

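For 13 genes the change with genotype differed between activated and 0-marker gCap cells by edgeR's quasi-likelihood interaction test with Benjamini-Hochberg adjustment, and the difference of the log2 fold changes (activated minus 0-marker cells) is given for each. The 4 haemoglobin genes had the largest differences, at 12.46 for Hbb-bt, 12.59 for Hba-a1, 11.95 for Hbb-bs and 12.68 for Hba-a2. For Hbb-bs they rested on 2 sums, 959.5 CPM in activated cells of Tubb3-/- replicate 1 and 6345 CPM in 0-marker cells of WT replicate 2, beside 9.39 to 24.9 CPM in the other 6. Igkc, an immunoglobulin gene, differed by 3.75 and Igfbp6 by 3.10.

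The other 7 differences were negative. Ifi27l2a differed by -4.07, with 592 CPM in activated cells of WT replicate 2 and 39.3 to 77.6 CPM in those of the other 3 mice. Slit3 (-2.78), Ces1d (-3.04), Lmcd1 (-2.46), Tnc (-2.27), Lama4 (-2.29) and Adamts4 (-2.81) were higher in 0-marker cells of both Tubb3-/- mice than in those of both WT mice. Tnc was at 54.4 and 28.6 CPM in 0-marker cells of WT and 356 and 110.3 CPM in those of Tubb3-/- mice, beside 41.0 to 75.3 CPM in activated cells. Among cells with Pecam1 and Cldn5, 2 of the 13 genes were called again, and among cells without Pdgfrb, Col1a1 or Col1a2, none.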

How the results depend on the processing

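The higher activated share in Tubb3-/- mice kept its direction in every alternative and its call in all but 2. Leaving out a mouse gave log2 ratios of 0.57 to 1.05, and the call was lost without Tubb3-/- replicate 1 (0.81, edgeR adjusted p = 0.164) and replicate 2 (0.79, edgeR adjusted p = 0.174).

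Counts of called genes moved more. In activated cells, 0 genes became 17 at 3000 UMIs per cell, 8 with DESeq2 and 0 to 21 on leaving out a mouse. In 0-marker cells, 52 became 85 in whole lung cell libraries alone, 4 at 3000 UMIs, 9 without Tubb2b in the rule, 11 and 11 with doublets left out by either limit, 3 at 10% mitochondrial UMIs, 0 without cells with Pdgfrb, Col1a1 or Col1a2, 1 with Pecam1 and Cldn5, 617 without the low-count filter and 62 to 582 on leaving out a mouse. For the interaction, 13 became 21 at 3000 UMIs, 149 with 3 or more markers, 49 without Tubb2b, 7 without the top 5% of doublet scores, 34 at 10% mitochondrial UMIs, 1 without cells with Pdgfrb, Col1a1 or Col1a2, 7 with Pecam1 and Cldn5, 23 with RLE size factors, 310 without the filter, 27 with DESeq2 and 4 to 256 on leaving out a mouse. Genes that differed by state, 1.5-fold on average, numbered 351 at 3000 UMIs and 522 with Pecam1 and Cldn5, against 965 to 1274 on leaving out a mouse.

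Mice with the same number are separate animals, in 2 pairs, and have like levels of Xist and Ddx3y. With the replicate block the activated share had a log2 ratio of 0.81 (edgeR adjusted p = 0.00985), and 244 genes were called in activated and 17 in 0-marker cells. The block leaves little spread between mice to measure, so these calls are less certain than their p-values.

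Of 335 values for named genes by genotype, 287 kept direction and side, 29 became called and 19 reversed. At 3000 UMIs the log2 fold change was -1.02 for Nupr1, -0.62 for Cdh11, -0.77 for Ccn2, -0.80 for Lama2, -0.11 for Gpx3 and -0.30 for Igfbp6. With 3 or more markers it was -1.24 for Magi2, -1.04 for Nupr1, -1.37 for Cdh11 and -0.45 for Ccn2. Without Tubb2b in the rule it was -0.86 for Magi2, -0.46 for Nupr1, -0.65 for Cdh11 and -0.32 for Ccn2. Without cells with Pdgfrb, Col1a1 or Col1a2 it was -0.44 for Nupr1, -0.48 for Ccn2 and -0.19 for Gpx3, and with Pecam1 and Cldn5 it was -0.23 for Cdh11 and -0.072 for Ccn2. Interaction values reversed at 3000 UMIs for Hbb-bs (-2.39), Ces1d (1.88), Ifi27l2a (0.062) and Igfbp6 (-0.61), with Pecam1 and Cldn5 for Ces1d (8.01), and on leaving out a mouse for Hba-a1 (-0.95 without WT replicate 2, to 14.25 without Tubb3-/- replicate 2). At 3000 UMIs the cells are also not the same set, as given above, and the cause of these changes was not tested. Genes at low counts in WT sums, which hold fewer UMIs, are the least certain.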
